A study of Mus musculus with 2 samples.

Results

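Rag1, Rag2, Dntt, Ly6d, Satb1, Ikzf1, Ikzf3 and Lax1 are genes of early lymphoid development, and were compared between progenitors of innate lymphoid cells (ILCs) from wild-type mice and the same kind of cells labelled Yeats4 knockout. The members were chosen by name, as the probe sets whose platform annotation gives one of these 8 symbols. Of the 8, 7 have 1 probe set each, among 19505 genes named on the array, and Rag1 was not analysed here. The study hybridised 1 array of wild-type littermate cells and 1 array of cells from mice with a Yeats4 deletion. Both samples were sorted as lineage-negative cells that stained for CD127 and for α4β7 integrin and had intermediate levels of c-Kit and Sca-1, and the second array is called the labelled-knockout array here. The age, the number of mice behind each array, and the promoter or Cre that drove the deletion were stated in none of the labels used here. With 1 array per genotype no difference has a replicate check, so no test was made and no p-value is given.

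Lymphoid progenitors begin to express the V(D)J recombination machinery before they commit to the B or T lineage. The RAG1 and RAG2 proteins together cut DNA at recombination signals, terminal deoxynucleotidyl transferase (Dntt) adds untemplated nucleotides at the joints, and the zinc finger proteins Ikaros (Ikzf1) and Aiolos (Ikzf3) regulate lymphoid genes. Satb1 organises chromatin in lymphoid cells, Ly6d is a surface protein that marks common lymphoid progenitors turning to the B lineage, and Lax1 is a membrane adaptor that dampens antigen receptor signalling. ILC progenitors descend from common lymphoid progenitors, and mature ILCs carry no rearranged antigen receptor.

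To show the kind of promoter these genes have, the RefSeq sequences (GRCm38.p6) of 4 members are printed for comparison, of 6 members found in the sequence table. Dntt and Rag2 encode recombination factors, Ikzf1 encodes a regulator of such genes, and Lax1 had the lowest difference among members read above background. Each window runs from 250 bases before the most upstream annotated start to 30 bases after it, 5′ to 3′ on the gene's strand, and capitals mark the E box letters CANNTG, which read the same on both strands.
Dntt, chr19:41029025-41029304, plus strand: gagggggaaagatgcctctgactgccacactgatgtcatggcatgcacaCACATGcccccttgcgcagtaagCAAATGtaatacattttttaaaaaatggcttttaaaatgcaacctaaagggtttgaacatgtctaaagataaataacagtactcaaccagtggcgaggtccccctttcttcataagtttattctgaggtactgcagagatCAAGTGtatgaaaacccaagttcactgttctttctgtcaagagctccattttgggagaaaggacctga
Rag2, chr2:101624462-101624741, plus strand: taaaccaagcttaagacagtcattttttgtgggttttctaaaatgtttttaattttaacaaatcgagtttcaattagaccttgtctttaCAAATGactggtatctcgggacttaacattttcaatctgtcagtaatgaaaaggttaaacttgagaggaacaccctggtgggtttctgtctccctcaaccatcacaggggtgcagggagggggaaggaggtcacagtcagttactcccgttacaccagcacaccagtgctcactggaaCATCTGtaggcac
Lax1, chr1:133690079-133690358, minus strand: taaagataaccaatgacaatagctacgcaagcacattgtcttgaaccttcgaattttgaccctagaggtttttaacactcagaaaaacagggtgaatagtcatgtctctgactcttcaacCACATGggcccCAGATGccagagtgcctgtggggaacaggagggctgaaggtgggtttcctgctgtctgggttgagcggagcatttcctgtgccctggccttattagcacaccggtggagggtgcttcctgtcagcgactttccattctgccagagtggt
Ikzf1, chr11:11685675-11685954, plus strand: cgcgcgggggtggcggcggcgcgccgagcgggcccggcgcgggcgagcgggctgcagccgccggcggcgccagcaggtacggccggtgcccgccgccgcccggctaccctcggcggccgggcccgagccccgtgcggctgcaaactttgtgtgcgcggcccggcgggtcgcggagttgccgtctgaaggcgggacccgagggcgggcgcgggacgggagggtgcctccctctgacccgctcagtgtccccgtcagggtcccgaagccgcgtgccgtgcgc
The letters CANNTG occur at 3 places in the Dntt window, at 2 in that of Rag2, at 2 in that of Lax1 and at none in that of Ikzf1. They occur in 70.1% of all 32851 promoter windows of this length. The Ikaros core letters TGGGA, searched on both strands, occur once, in the Dntt window, and in 59.0% of all windows. That match begins at base 14 of the part after the annotated start. The letters TGGGAA and GTAAACA, also searched, occur in none of the 4 windows, and in 23.8% and 3.49% of all windows. The Ikzf1 window is 81.4% G and C, whereas that of Dntt is 42.1%, that of Rag2 42.5% and that of Lax1 50.4%. No binding was measured, so these are matches of letters only.

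Of the 7 measured members, none differed between the arrays by 2-fold or by 1.5-fold. The differences ran from -0.35 to 0.28 on the log2 scale (labelled-knockout value minus wild-type value), and the largest was 1.27-fold. Among the 10881 genes past the level filter (a mean of at least 2.88, the median probe set), 0.781% were at least 2-fold lower and 1.56% at least 2-fold higher. At 1.5-fold these shares were 5.16% and 9.16%. The split depends on centring, here on each array's median over these 10881 genes. After it, 120 genes were at least 2-fold lower and 121 higher, beside 85 and 170 as deposited. All 7 members passed that filter. Their median difference was -0.09, beside 0.08 over all genes past the filter. These shares are small, so a count of 0 among 7 genes is near the background and is not a result about the members.

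**Figure D1:**
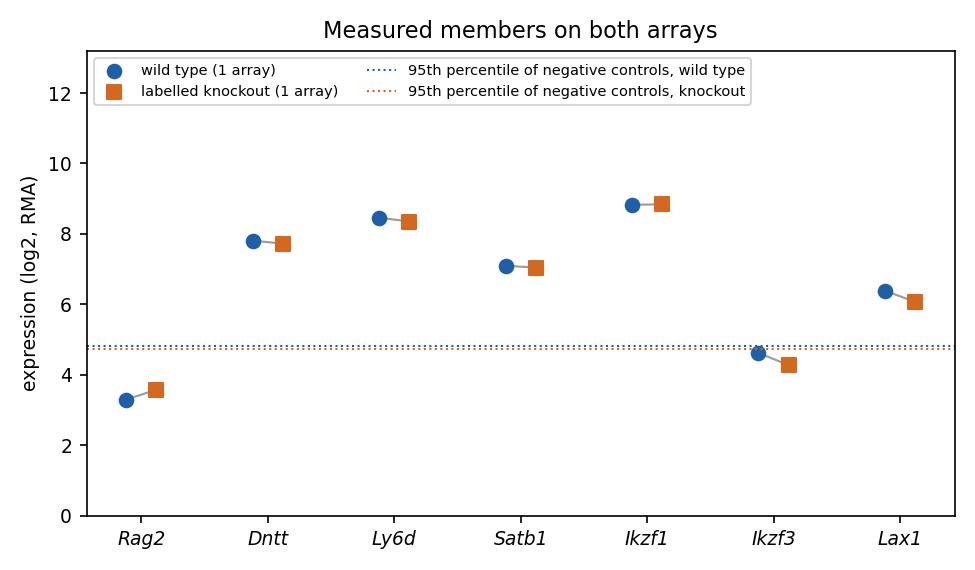
Log2 expression (RMA) of the 7 measured members on the wild-type array (circles) and on the labelled-knockout array (squares), 1 array each and therefore without error bars. Dotted lines mark the 95th percentile of the negative control probe sets, and Rag2 and Ikzf3 lie under them on both arrays.

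Each array's background was taken as the 95th percentile of its 5222 negative control probe sets, 4.80 in wild-type cells and 4.73 in labelled-knockout cells. The members Dntt, Ly6d, Satb1, Ikzf1 and Lax1 were above it on both arrays. Rag2 and Ikzf3 were below it on both, so their differences lie among values that probes without a target also reach. The 5 members above background had differences from -0.32 to 0.02, with a median of -0.09. The 5283 genes above background on both arrays had a median of 0.13, and 0.341% of them were at least 2-fold lower and 0.284% at least 2-fold higher. The shares past 1.5-fold were 1.51% lower and 6.28% higher. The median difference depended on level (-0.04 for genes with means of 2.88 to 4, and 0.17 for those of 6 to 7), so each member is set beside the 500 genes nearest to it in mean level.

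Of the recombination genes, Dntt, the untemplated polymerase, read 7.81 in wild-type cells and 7.72 in labelled-knockout cells. These values are above 99.1% and 99.2% of the negative controls. The difference was -0.09, or 1.06-fold lower. The 500 genes of like level had a median of 0.13, a spread (scaled median absolute deviation) of 0.22 and a central 95% from -0.43 to 0.64, and 83 of them were as low as Dntt. Dntt therefore read 0.22 below the median of its neighbours in level, about 1 local spread.

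Rag2, the partner of RAG1 in the recombinase, read 3.29 in wild-type cells and 3.58 in labelled-knockout cells. These values exceed 81.7% and 86.6% of the negative controls. The difference of 0.28 lay inside the central 95% of genes of like level, -0.848 to 0.997, and 128 of the 500 were as high. The 500 negative controls nearest in level spanned -1.45 to 1.23 in their central 95%. Rag2 transcript was therefore not measurable above background on either array, and no direction can be read from its value. Rag1, which encodes the subunit that holds the active site, was not analysed here.

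Ly6d, the surface marker, read 8.46 in wild-type cells and 8.35 in labelled-knockout cells. The difference of -0.11, or 1.08-fold lower, lay inside the central 95% of genes of like level (-0.34 to 0.62). Of those 500 genes, 57 were as low, and their median was 0.14. In flow cytometry Ly6d divides common lymphoid progenitors into a B-biased fraction and a fraction that keeps other lymphoid fates. Ly6d was well above background in this ILC progenitor gate, on both arrays.

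Among the transcriptional regulators, Ikzf1 read 8.82 in wild-type cells and 8.84 in labelled-knockout cells. This is a difference of 0.02, or 1.01-fold, which turned to -0.07 with median centring or quantile normalization. Of the genes of like level 123 of 500 were as low, since their median was 0.14. It had the difference closest to 0 of the 7 measured members. Satb1, the chromatin organiser, read 7.10 in wild-type cells and 7.04 in labelled-knockout cells. Its difference of -0.05, or 1.04-fold lower, had 110 of 500 genes as low. Ikzf3, the Ikaros relative of later lymphoid stages, read 4.62 and 4.27, above 93.9% and 92.7% of the negative controls, with a difference of -0.35. Genes of like level spread by 0.43, and 83 of 500 were as low. As Ikzf3 was under the background level on both arrays, its value carries no direction either.

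Lax1, the adaptor, had the lowest difference of the 5 members above background. The wild-type value was 6.39 and the labelled-knockout value 6.07, so Lax1 was 1.25-fold lower (-0.32). The 500 genes of like level had a median of 0.16 and a spread of 0.29, and 32 of them were as low. Lax1 thus lay 1.65 local spreads below their median and inside their central 95% (-0.46 to 0.86).

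**Figure D2:**
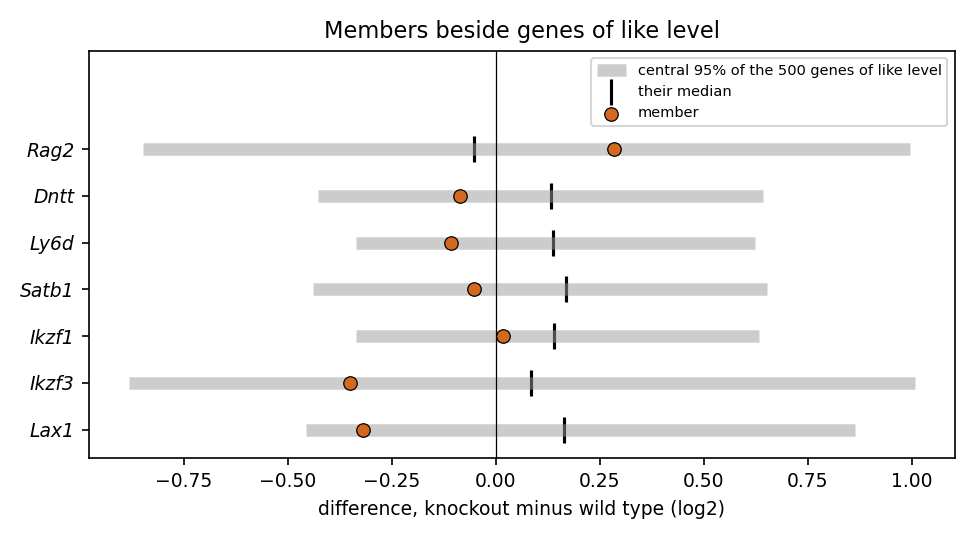
Difference of each measured member (circle, knockout minus wild type, log2) beside the central 95% (grey bar) and the median (tick) of the 500 genes nearest in mean level. All 7 members lie inside their bars, and 6 lie left of the tick, with Rag2 the exception. Rag2 and Ikzf3 were near background on both arrays.

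All 7 members lay inside the central 95% of genes of like level, and 6 lay below the local median. These 6 include Ikzf3, which was near background on both arrays and carries no direction. By definition, as many genes of like level lie below their median as above it. The count among 7 members is therefore a description and not a result about them. The shift below the median was 0.12 for Ikzf1 at the least and 0.48 for Lax1 at the most. Subtracting a loess curve of the difference on level gave -0.23 for Dntt, -0.25 for Ly6d, -0.20 for Satb1, -0.12 for Ikzf1 and -0.47 for Lax1. After that correction these 5 were all below 0, Ikzf1 included, which was at 0.02 before it. This order among members is a description of a pair of arrays. Genotype and any other difference between the samples cannot be told apart.

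**Figure D3:**
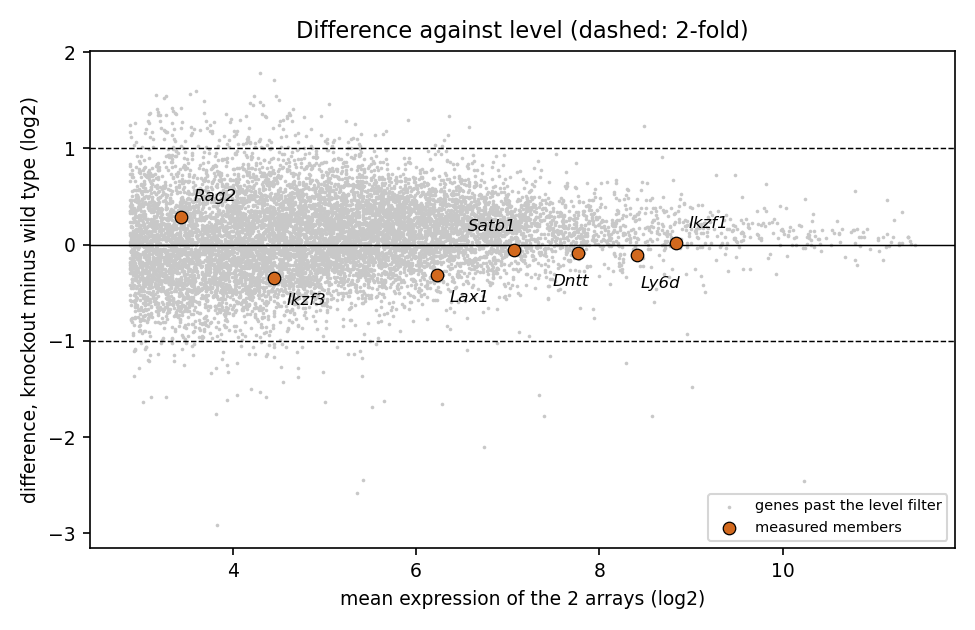
Difference (knockout minus wild type, log2) against the mean log2 expression of the arrays for the 10881 genes past the level filter (grey) and the 7 measured members (orange). The dashed lines mark 2-fold, and the members lie between -0.35 and 0.28.

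The transcription factors that act on Rag, Dntt and early lymphoid fate were a wider set of 19 genes, all past the filter, of which 16 were above background on both arrays. As measured, 2 were at least 2-fold lower, none was 2-fold higher, and the median was -0.12 (-0.03 with values raised to the control level). Lef1, a partner of β-catenin in lymphoid precursors, read 6.46 and 4.83 (wild type first, as in all pairs of values here), which is 3.08-fold lower (-1.63), and none of 500 genes of like level was as low. Pax5, the B lineage commitment factor, read under background in labelled-knockout cells, which puts it at least 1.79-fold lower. Ebf1, which specifies B cells, was 1.94-fold lower (-0.95). Ets1, a lymphoid ETS factor, was 1.59-fold lower (-0.67), with 3 of 500 genes of like level as low, and Gfi1, near background in wild-type cells, was at least 1.39-fold higher. At 1.5-fold 4 of the 19 were lower and 1 higher as measured. Foxo1, an activator of the Rag genes, was at -0.41, where 23 of 500 genes of like level were as low, and Tcf3, which encodes E2A, was at -0.31, where 26 were. Other E protein genes were at -0.02 (Tcf12) and 0.20 (Tcf4), while the progenitor factors Myb and Spi1 were at 0.30 and 0.13. Foxo1, Tcf3, Tcf12, Tcf4, Myb and Spi1 were picked from the 19 for their roles, after their values were seen.

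Of 22 listed partners of recombination and end joining, 19 passed the filter, 11 of them near background on both arrays. Of the 19, 15 were above 0 and 4 below, none was 2-fold away, and the median was 0.26. Over all genes past the filter 58.2% were above 0, with a median of 0.08. The list median was 0.17 after median centring and 0.00 with values raised to the control level. The median as deposited was also 0.26 over the 7 above background on both arrays. Over all genes above background on both arrays the median was 0.13, and 65.7% were above 0. Rif1, which steers double-strand break repair, was 1.94-fold higher (0.96, read at 4.92 and 5.88), with 7 of 500 genes of like level as high. Xrcc6, the Ku70 subunit, was 1.58-fold higher (0.66, read at 6.15 and 6.81), and Rad50 1.42-fold higher (0.50). Of 500 genes of like level, 27 were as high as Xrcc6 and 62 as high as Rad50. The high mobility group proteins that assist the RAG complex read high on both arrays, with Hmgb1 at 0.21 and Hmgb2 at 0.26. At their levels 157 and 144 of 500 genes were as high. The family X polymerases related to Dntt (Polb, Poll and Polm) were near background on both arrays, at 0.95, 0.41 and -0.85.

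Of the Ikaros relatives, Ikzf2 (-0.64), Ikzf4 (-0.67) and Ikzf5 (0.48) were all near background on both arrays. The chromatin partners of Ikaros in the NuRD, Sin3 and CtBP complexes were 15 measured genes, 14 of them above background on both arrays. None differed by 1.5-fold, 11 were above 0 and 4 below, and the median was 0.06, which turned to -0.08 after the loess correction. Among the 14 above background, Chd3 (-0.36) and Ctbp1 (0.34) differed most, and Mbd3, near background in wild-type cells, was at least 1.02-fold higher. Cux1, a homeodomain relative of Satb1, read 6.84 and 6.88, and Cux2 was under the level filter.

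In the Ly6 family 8 of 13 measured genes passed the filter, and none differed by 1.5-fold among them. Those above background were Ly6e (-0.05), Ly6c1 (0.15) and Ly6c2 (0.15), of which the last pair are near-identical copies whose probes may not separate them. The membrane adaptors related to Lax1 gave 4 genes past the filter, with a median of -0.52 as measured (-0.0137 with values raised to the control level). Lat, the adaptor of T cell receptor signalling, was 1.60-fold lower (-0.68), and 4 of 500 genes of like level were as low. Pag1, under background in labelled-knockout cells, was at least 1.02-fold lower, and Sit1 (-1.25) and Lat2 (0.06) were near background on both.

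Surface and signalling genes of lymphoid-primed and common lymphoid progenitors had a median of 0.04 over 10 genes (-0.10 after the loess correction), all above background on both arrays, and none was 2-fold away. Il7r, which encodes CD127 and belongs to the sort gate, was 1.62-fold lower (-0.70). Ccr7 was at -0.57 and Blnk, a signalling adaptor whose gene lies beside Dntt, at -0.52. Flt3 (0.46) and Cd34 (0.39), of earlier progenitors, were above 0, but 78 and 90 of 500 genes of like level were as high. Cd93 of this list was at 0.12, below the median of 0.17 for genes of like level. As low as Il7r, Ccr7 and Blnk were 4, 6 and 9 of 500 genes of like level. Il7r, Ccr7 and Blnk lay further below 0 than any of the 7 measured members.

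Other cells that such a gate can hold also express these members, which is why their markers are given here. B lineage precursors express Rag2, Dntt, Ikzf3 and, in part, Ly6d. All 14 measured B lineage markers were lower as measured, 5 of them at least 2-fold (2 with values raised to the control level), with a median of -0.72, and 3 were near background on both arrays. Their mean log2 level was 6.02 in wild-type cells (3.86 to 8.33) and 5.25 in labelled-knockout cells (3.36 to 7.56). Igll1, which encodes a surrogate light chain part, was 2.24-fold lower and the pre-B gene Vpreb3 2.03-fold lower, while the limits for Vpreb1 and Blk, both under background in labelled-knockout cells, were 1.51-fold and 1.28-fold. On the same arrays Dntt was at -0.09 and Ly6d at -0.11. The part of B lineage cells in the members' values was not tested.

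T lineage cells express Satb1, Ikzf1 and Lax1. Of the 12 T lineage markers past the filter 11 were lower as measured, 9 of them at least 2-fold, with a median of -1.41. With values raised to the control level 5 were at least 2-fold lower and the median was -0.63. Over 13 measured markers the mean log2 level was 5.50 in wild-type cells (1.27 to 7.79) and 4.16 in labelled-knockout cells (1.75 to 5.99), and 3 were near background on both. Satb1 was at -0.05 and Ikzf1 at 0.02 on these arrays, while Lax1 and the T cell adaptor Lat were at -0.32 and -0.68. Cd3e was 4.30-fold lower, and the coreceptor genes Cd8b1 and Cd8a were each at least 3.57-fold lower. The coreceptor gene Cd4, above background on both arrays, was not lower. It read 5.28 in wild-type cells and 5.37 in labelled-knockout cells (0.09), and was the 1 marker of the 12 above 0. The part of T lineage cells in the value of Lax1 was not tested.

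Plasmacytoid dendritic cells of lymphoid origin also express Dntt and Ly6d. Of their 11 measured markers, 10 passed the filter and were above background on both arrays, none differed by 1.5-fold, and the median was 0.03, or -0.12 after the loess correction. The mean log2 level of the 11 was 6.26 in wild-type cells (2.62 to 8.86) and 6.29 in labelled-knockout cells (2.27 to 8.79). Siglech, a defining receptor of these cells, read 7.50 and 7.45, and Bst2 (0.47) and Cox6a2 (-0.30) differed most. These 10 markers, Dntt and Ly6d read above background on both arrays, as did 8 of 14 B lineage markers and all 10 neutrophil precursor markers. The part of plasmacytoid dendritic cells in the values of Dntt and Ly6d was not tested. In bulk RNA, fewer cells of a type and less RNA per cell cannot be told apart.

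**Figure D4:**
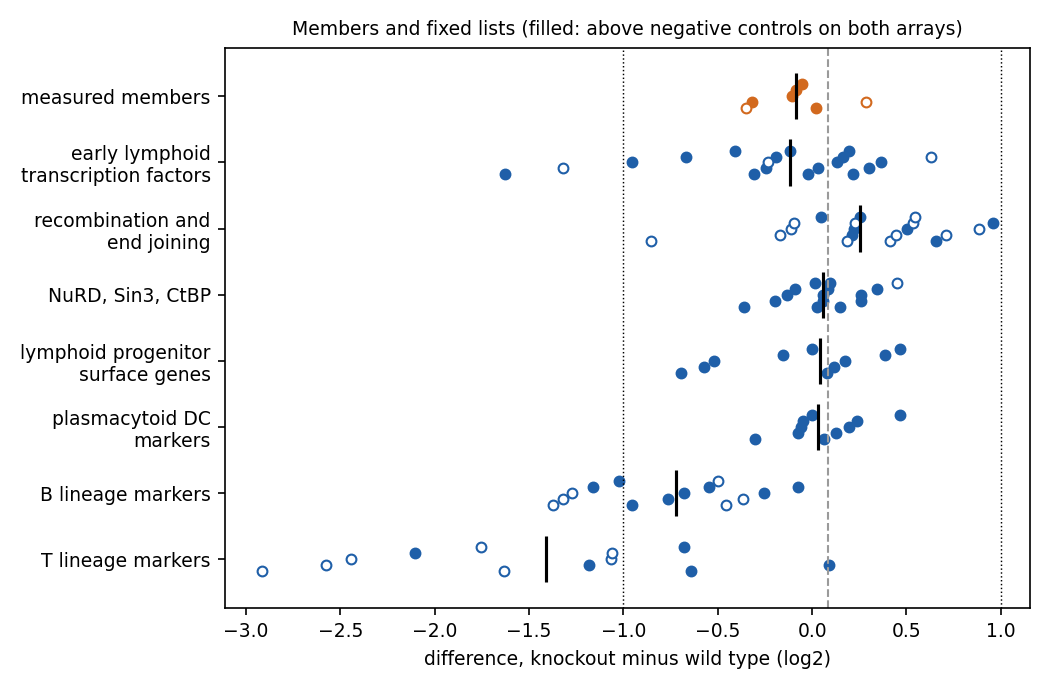
Differences (knockout minus wild type, log2) of the measured members and of 7 fixed lists, 1 point per gene past the level filter, filled where the gene was above the negative control level on both arrays and open otherwise. Thick ticks are medians, the grey dashed line is the median of all genes past the filter (0.08) and the dotted lines mark 2-fold. The members have a median of -0.09, B lineage markers -0.72 and T lineage markers -1.41.

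Among the other cell types, 8 of 12 measured NK cell markers passed the filter, with a median of -0.68 as measured (-0.15 with values raised to the control level). Near background on both arrays were 7 of the 12. Of the 8, 5 were below 0 and 3 above. At least 2-fold lower as measured were 3 of the 8, of which Eomes, under background in labelled-knockout cells, has a limit of 1.24-fold. None of the 8 was 2-fold higher. Above background on both arrays were Ccl5 (-1.78), Il2rb (-1.09) and Nkg7 (0.53). Neutrophil precursor markers, all 10 above background on both arrays, had a median of -0.11 with none 2-fold away, and mean levels of 9.44 (wild type) and 9.45. They differed in both directions, 6 below 0 and 4 above. Ctsg was at 0.72, with 3 of 500 genes of like level as high, and Prtn3 at 0.55, with 16 as high. Ltf was at -0.55, with 5 as low, and Camp at -0.41, with 10 as low. Of 9 measured markers of committed ILC progenitors, 5 were below 0 and 4 above, with a list median of -0.14. Near background on both arrays were 3 of them. Id2 was 2.35-fold higher (1.23), with none of 500 genes of like level as high. Nfil3 was 1.91-fold lower (-0.93) and Tox 1.49-fold lower (-0.58), each with 3 of 500 as low. Itga4 and Itgb7 of this list are also sort gate genes. The sort gate genes differed in both directions. Kit was 1.57-fold higher (0.65), with 11 of 500 genes of like level as high, Il7r was at -0.70, Itgb7 at -0.14 and Itga4 at 0.00. Yeats4 itself read 5.96 and 5.90, a difference of -0.06, and the position of its probes relative to the deleted part is not known here, so its level does not check the label.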

How the data were processed

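Expression was measured on 2 arrays, 1 per genotype. The deposited log2 values come from Affymetrix Power Tools and RMA, as the submitters' processing notes name them. RMA corrects background, applies quantile normalization and gives 1 log2 value per probe set, so the values cannot show a change in total RNA. Versions and the genome build were not given in the sources used here, and scanner intensities were not used.

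The table has 29129 probe sets. GEO's platform annotation has 19572 entries for them, and the entries with 1 symbol name 19505 genes (1 probe set per gene, that of highest mean). All gene identifiers matched the reference gene table (GRCm38.p6), used for names and gene order only. The gene names rest on that annotation, and the design text names an array type (Mouse Gene 2.0) that its probe set names may not belong to. Genes were compared when their mean reached the median probe set (2.88). Differences are knockout minus wild type, with no centring. Each is set beside the 500 genes nearest in mean level (scaled median absolute deviation, central 95%). For a gene under background on 1 array only, the fold is a lower limit against 4.80, the higher of the arrays' negative control levels. The number of arrays limits the precision.

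The members, lists and alternatives were chosen with earlier results of these data known. Named genes are the members, Yeats4 and, in each list, those past 2-fold and the 3 with the largest difference above background on at least 1 array, up to 6, with shorter selections for lists of other cell types. Examples beyond this were chosen after their values were seen. Listed genes not found in the annotation were not analysed here. Python 3.11.15, numpy 2.4.6, pandas 2.3.3, scipy 1.17.1, statsmodels 0.14.6 (loess, span 0.3) and matplotlib 3.10.9 were used.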

Additional observations from a re-analysis of the deposited data

How the results depend on the processing

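Results were recomputed without the level filter and with a stricter one (75th percentile, 4.84). They were also recomputed after centring on the medians of the genes past the filter, after a loess correction and after quantile normalization. Another setting averaged a gene's probe sets. Further settings raised values to the negative control level (4.80), used 200 or 1000 genes of like level, or set the threshold at 1.5-fold. All 68 recomputed member differences moved by less than the local spread, but many of them could not move. The filters, the number of genes of like level and the fold threshold do not alter a gene's difference. Averaging does not either, as each member has 1 probe set. Only centring, the loess correction, quantile normalization and the raised control level could move a member. No member passed 2-fold, or 1.5-fold, under any setting. The difference of Ikzf1 ranged from -0.12 to 0.02, so its sign depends on centring, quantile normalization and the correction for level. Lax1 ranged from -0.47 to -0.32. Rag2 and Ikzf3 gave no value with the 75th percentile filter, and their values were 0.00 when raised to the negative control level, where values have no order. Of 158 recomputed list medians 153 moved by less than the spread over all genes, and the 5 others moved when values were raised to the control level. The settings of 200 or 1000 genes and of 1.5-fold cannot change a list median, so those medians are repeats. With values raised to the control level, the medians were 0.00 for the family X polymerases and for the Ikaros relatives. They were -0.0137 for the adaptors related to Lax1, -0.63 for T lineage markers and -0.15 for NK markers. With 200 genes of like level Dntt was at percentile 12.5, beside 16.6 with 500. No paired analysis was possible because each genotype had 1 array, and for the same reason no array could be left out. With 1 array per genotype, a difference within the central 95% of genes of like level, as that of every measured member was, cannot be told from their scatter.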

Other observations

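Genes beside the members on their chromosomes, the 3 nearest measured protein-coding genes on either side in the order of the reference table, gave 42 further genes with a median difference of -0.08. On both arrays 30 read near background and 12 above it. At 1.5-fold, 4 of the 42 were higher and 1 lower. Among all genes past the level filter, which was not applied to the neighbours, 9.16% were higher and 5.16% lower. These counts are not a result about the members. Of these 5 neighbours only the apoptosis inhibitor gene Api5 was above background on both arrays (5.57 and 6.25, 1.60-fold higher). Api5 lies 2 measured genes before Rag2 on chromosome 2. Grb10, near background on both arrays, was the 1 neighbour past 2-fold (1.19). Traf6, a ubiquitin ligase of innate signalling whose gene is the nearest measured gene past Rag1, read 5.40 and 4.97 (-0.43). Blnk, the measured gene next to Dntt, read 7.28 and 6.76, and Entpd1, also near Dntt, differed by -0.02. Snrpe, next to Lax1, read 5.89 and 5.82. Entpd1 and Snrpe were picked after their values were seen.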
